A study of Mus musculus with 4 samples.

Results

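Gene-desert regions are described here: stretches of open chromatin whose summit lay outside every protein-coding gene and more than 100 kb from any boundary of such a gene, and which carried a peak in each of 4 libraries. The peak lists of the 4 libraries were merged wherever peaks shared 1 bp on chromosomes 1 to 19 and X. This gave 55274 regions, of which 27465 had a peak in all 4 libraries. A region's summit was that of its peak with the highest percentile of fold enrichment within its own list. By this rule 487 regions were shared desert regions, 1.77% of the shared regions. Members were thus chosen by the measured presence of a peak in every library and by the position of the summit, so neither is a finding.

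The libraries came from mouse fetal liver at embryonic day 14.5 and were made by ATAC-seq, an assay that sequences the fragments a transposase cuts from accessible DNA. There were 2 wild-type (WT) libraries and 2 from hemogen knockout (KO) animals. All livers came from the same stage and were processed by an Omni-ATAC protocol. Hemogen, the product of Hemgn, is a nuclear protein found in blood-forming cells, and the series title links it to BRG1, the ATPase of the BAF chromatin remodeller. The labels do not describe the KO allele, nor whether the KO was confined to any cell type. Nothing in them ties replicates to different embryos, so any spread between libraries may be technical.

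A gene desert is a long stretch of a chromosome with no protein-coding gene. Deserts often flank genes for developmental regulators and can hold distal enhancers, which act on a promoter over long distances through looping of the chromatin fibre. In blood-forming cells, distal enhancers are commonly bound by GATA factors together with helix-loop-helix, ETS, RUNX and KLF factors. At this stage the fetal liver makes most of the embryo's red cells, and erythroid cells are its most common type.

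The WT lists held 47845 (replicate 1) and 34167 (replicate 2) peaks, the KO lists 35415 and 43005, and the read depth behind them is not given. The labelled tissue was checked by peaks within 1 kb of marker genes. Of 8 erythroid markers, 6 had such a peak in all 4 libraries. Epor, the erythropoietin receptor, lacked it in KO replicate 1, and Gata1, the defining erythroid transcription factor, lacked it in every library. The counts were 2 of 5 for hepatocytes, 1 of 4 for macrophages, 2 of 4 for megakaryocytes, 1 of 4 for endothelium, and 0 of 4 for both lymphocytes and granulocytes. Some markers split by genotype. S100a8 and Camp, of granulocytes, had such a peak in WT replicates 1 and 2 but not in KO, while Cd79b and Blnk, of lymphocytes, and Pecam1, of endothelium, had it in KO replicates 1 and 2 but not in WT. Their part in the rank differences between genotypes was not tested. Hemgn itself had 1 peak within 1 kb of its boundaries in every library, and 13, 12, 12 and 14 peaks within 50 kb, so the lists do not check the deletion. No shared desert region was flanked by Hemgn.

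Several of these regions sat at the starts of long non-coding RNA genes, which the rule on protein-coding genes did not touch. In all, 45 regions overlapped 57 promoter windows of the RefSeq table for the assembly GRCm38.p6. Every one of the 57 windows belonged to a long non-coding RNA gene. Each window runs from 250 bases before to 50 bases after a transcription start. The windows printed here are those at the highest-ranked such regions of chromosomes 16, 2 and X, and those in the fullest gaps of chromosomes 13 and 5. Sequences are in GRCm38.p6, written 5′ to 3′ on the strand of the gene, and capitals mark AGATAA or TGATAA, or their reverse complement, the core that GATA factors bind.
Dubr, chr16:50732724-50733023, minus strand: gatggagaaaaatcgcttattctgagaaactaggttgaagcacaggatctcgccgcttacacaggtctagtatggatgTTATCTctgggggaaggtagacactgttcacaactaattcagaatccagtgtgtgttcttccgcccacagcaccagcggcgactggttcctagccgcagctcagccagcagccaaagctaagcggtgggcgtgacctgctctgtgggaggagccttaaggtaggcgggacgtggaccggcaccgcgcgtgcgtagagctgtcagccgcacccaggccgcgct
Gm39767, chr2:21964118-21964417, minus strand: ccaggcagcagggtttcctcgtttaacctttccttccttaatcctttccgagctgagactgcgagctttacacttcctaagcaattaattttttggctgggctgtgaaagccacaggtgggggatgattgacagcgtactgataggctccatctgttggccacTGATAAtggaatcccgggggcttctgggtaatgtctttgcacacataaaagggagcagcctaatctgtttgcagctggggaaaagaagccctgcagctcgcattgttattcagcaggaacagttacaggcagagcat
Firre, chrX:50635272-50635571, minus strand: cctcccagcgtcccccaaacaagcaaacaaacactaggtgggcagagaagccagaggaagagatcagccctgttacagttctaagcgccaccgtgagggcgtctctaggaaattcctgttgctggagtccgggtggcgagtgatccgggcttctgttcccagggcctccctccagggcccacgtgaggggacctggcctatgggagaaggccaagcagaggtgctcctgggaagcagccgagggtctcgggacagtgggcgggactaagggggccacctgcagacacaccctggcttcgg
Gm41062, chr13:112100672-112100971, plus strand: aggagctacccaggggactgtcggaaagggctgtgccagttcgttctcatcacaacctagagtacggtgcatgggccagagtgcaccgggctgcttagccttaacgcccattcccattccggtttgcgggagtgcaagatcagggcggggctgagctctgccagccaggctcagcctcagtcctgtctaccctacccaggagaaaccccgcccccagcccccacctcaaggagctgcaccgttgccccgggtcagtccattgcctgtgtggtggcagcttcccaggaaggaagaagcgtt
Gm3716, chr5:64610650-64610949, minus strand: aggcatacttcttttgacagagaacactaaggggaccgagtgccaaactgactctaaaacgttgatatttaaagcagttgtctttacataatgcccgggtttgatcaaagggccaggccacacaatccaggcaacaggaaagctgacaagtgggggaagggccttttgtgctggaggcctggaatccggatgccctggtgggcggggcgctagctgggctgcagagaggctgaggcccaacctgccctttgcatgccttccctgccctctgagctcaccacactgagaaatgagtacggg

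Dubr, a long non-coding RNA gene between Ccdc54 and Cblb, held the summit of a region at chr16:50732237-50733074 (838 bp) that ranked 89.42, 86.55, 86.87 and 92.00 among shared regions in WT replicates 1 and 2 and KO replicates 1 and 2. Firre, an X-linked RNA gene known for its part in nuclear organisation, had a region at its start whose lowest percentile in any list was 74.3. The windows of Gm41062 and Gm3716 lay in the gaps next to Map3k1 and Klf3. In the Dubr and Gm39767 windows there was 1 match each to the GATA core, and in the Firre, Gm41062 and Gm3716 windows there was none.

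Over the 57 windows, 17 (29.8%) held AGATAA or TGATAA on either strand, against 18.6% of all 32815 promoter windows and 23.7% of 11573 windows of long non-coding RNA genes. AGATAA alone was in 22.8% of the 57, against 11.2% of all windows and 13.98% of those of long non-coding RNA genes. TGATAA was in 12.3%, against 9.06% and 11.7%, so its share was close to that of other non-coding genes. The KLF-type motif CCACACCC was in 3.51%, against 3.56% of all windows. The E-box CANNTG, which can overlap the other motifs, was in 66.7%, against 72.3% of all windows and 78.4% of long non-coding RNA windows. The core of the CTCF motif was in 1 window (1.75%), against 1.29% and 0.665%. Median GC content was 53.7% in the 57 windows, 52.7% in all windows and 48.3% in those of long non-coding RNA genes. These counts are descriptions of short windows, and neighbouring windows at shared regions are not independent.

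Long non-coding genes also lay beneath many other members. The summit was inside a non-coding gene in 177 of 487 regions (36.3%), of which 166 were inside a long non-coding RNA gene. Another count, of summits within 1 kb of a non-coding gene's boundary, was 78. Only 25 of the 487 were more than 100 kb from every gene of any kind in the table, pseudogenes included. By that distance, most of these regions are deserts of protein-coding genes and not of all annotated genes. Regions that overlapped a promoter window had a median lowest percentile of 45.3, against 39.1 for the others. No miRNA hairpin overlapped a member. Mir802 lay within 10 kb of 2 regions in the Runx1 gap, Mir6363 near 2 regions next to Dubr, Mir6372 near a region in the Bcl11a gap, and 7 hairpins of the cluster between Rtl1 and Dio3 near a single region.

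Most desert regions were not found in every library. Over all 4 lists there were 1531 desert regions, 2.77% of merged regions. Of these, 545 were in 1 library, 302 in 2, 197 in 3 and 487 in 4, so that 31.8% were in all 4 libraries. The share in all 4 was 40.3% for near-gene intergenic regions, those outside genes and over 1 kb but at most 100 kb from a boundary. It was 38.4% for regions inside genes and 82.2% for regions within 1 kb of a gene boundary. These shares are over regions, which are not replicates, and carry no test.

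The desert regions seen in a single library came mainly from the longest lists. WT replicate 1 had 270 of them and KO replicate 2 had 202, while KO replicate 1 had 49 and WT replicate 2 had 24. In each genotype the longer list thus held most of them. Regions present in both libraries of 1 genotype and absent from the other numbered 44 for WT and 40 for KO. With lists reduced to equal length by fold, 36.6% of desert regions were in all 4 libraries.

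Each list as a whole can be compared between genotypes, since this measure did not use the rule on sharing. Peaks with a summit in a desert made up 2.51% and 2.002% of the WT lists and 2.11% and 2.55% of the KO lists. Both shares were higher in the longer list of each genotype, and the genotypes overlapped. The means were 2.26% ± 0.358 (SD, n = 2) in WT and 2.33% ± 0.308 (SD, n = 2) in KO, a difference of 0.0779 percentage points (exact two-sided permutation test, p = 0.667). With 2 against 2 libraries there are 6 relabelings, and the smallest p that the test can give is 0.333.

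The space available to the members was 709.856 Mb, the parts of 1519 gaps between protein-coding genes that lay over 100 kb from either flanking gene, or 27.7% of the span from the first to the last gene. Shared desert regions were sparse there. The 474 within these gaps numbered 0.668 per Mb, against 7.26 shared regions per Mb in the near-gene intergenic space. The 13 members before the first gene of a chromosome are not in this density. The median distance of a summit to the nearest protein-coding gene was 159.5 kb, with quartiles of 124 and 217 kb, and 151 regions (31.0%) were over 200 kb away. Only 12 were over 500 kb away, the farthest being chr10:16600668-16601517, 1122 kb from Cited2.

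Members were also concentrated in few gaps. Of the 1519 gaps, 229 (15.1%) held any member. A single member was in 127 gaps, 2 or 3 were in 73, and 4 or more were in 29, and these 29 gaps held 180 regions (37.0% of the 487). The 4 fullest gaps held 58 (11.9%), and 13 regions lay between a chromosome's start and its first gene. Gaps with members had a median length of 556 kb, against 396 kb for the others.

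Many long gaps held no member. Of 204 gaps with over 1 Mb of available space, 164 held none, 116 held no desert region of any library, and 78 held no region of any kind. The longest gap of the table, between the protocadherin genes Pcdh20 and Pcdh9 on chromosome 14, spanned 4542 kb and held no peak region in any library. The gap between Cntnap5b and Cdh20, both encoding neural cell-surface proteins, spanned 4278 kb and also held none. The gaps between Olfm4 and Pcdh17 and between Tenm3 and Aga held no member, and 1 and 2 regions of any library.

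The density of members differed between gaps beside different kinds of gene. Gaps whose first gene on either side was on the list of erythroid regulators held 29 members, 2.69 per available Mb, and 10 of these 16 gaps (62.5%) held at least 1. Gaps beside stem and progenitor regulators held 46 members, 2.23 per Mb, in 14 of 42 gaps. Both densities are above the 0.668 per Mb of all gaps. Gaps beside neural adhesion and synapse genes stood at the other end, with 15 members, 0.0712 per Mb, in 13 of 174 gaps. The lists were chosen with earlier results of these data known, so these densities are descriptions and were not tested. A member counts for a flanking gene at any distance. By nearest gene only, the erythroid, progenitor and neural counts were 23, 26 and 10.

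The other lists lay between. Developmental transcription factors of other tissues flanked 106 gaps, of which 18 held 31 members (0.623 per Mb). Hepatocyte and hepatoblast genes flanked 12 gaps, of which 2 held 3 members (0.401 per Mb), next to Nr5a2 and Prox1. Endothelial and stellate genes flanked 7 gaps, of which 2 held 5 members (1.28 per Mb), and both of these also have Kit as a flank. Without the gap between Pdgfra and Kit their density was 0.267 per Mb. The only 2 members beside a gene of the list for other blood cells lay between Nr5a2 and Ptprc, a gap also counted for hepatocytes. The 3 gaps of that list had only 0.934 Mb available, which gave 2.14 per Mb, near the density of progenitor gaps.

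A few gaps carried much of each count. Without the gap next to Myc, the erythroid gaps held 16 members, 1.74 per Mb, and without the gap next to Runx1 the progenitor gaps held 32, 1.59 per Mb. Without the fullest gap of all, next to Map3k1, the density over all gaps was 0.645 per Mb. Klf3 lies just beyond a gene model, Gm38457, that overlaps its start. Counting genes up to 5 kb beyond the flank adds the Klf3 gap and raises the erythroid count to 44 members, 3.99 per Mb. The plot of density by flanking genes shows the whole set of lists.

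**Figure D1:**
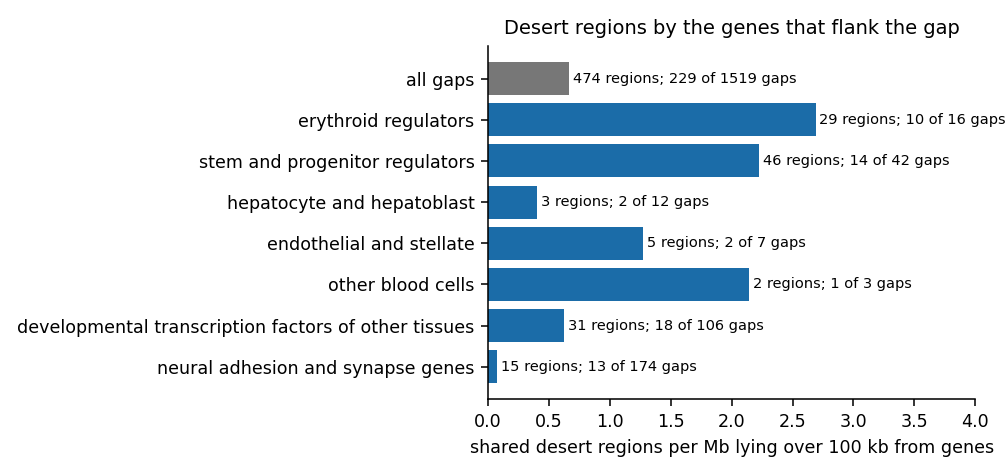
Shared desert regions per Mb of gap lying over 100 kb from genes (horizontal bars, starting at 0), for all gaps and for gaps flanked by genes of each list; the label at each bar gives the number of regions and the gaps that hold any. Erythroid and progenitor gaps reach 2.69 and 2.23 per Mb, gaps of other blood cells 2.14 (2 regions), all gaps 0.668 and neural gaps 0.0712. The lists were chosen with earlier results of these data known, and a flanking gene counts at any distance.

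Among the erythroid regulators, gaps with members were flanked by Bcl11a, Ets1, Kit, Myc, Rreb1, Sox6, Tgfbr2 and Trib2. Bcl11a and Sox6 encode repressors known for silencing embryonic and fetal-type globin genes. A member at chr11:24305238-24306373 lay 132.4 kb from the gene and ranked 36.3 and 30.0 in WT and 64.4 and 50.8 in KO. The other member of that gap, at chr11:26209805-26211013, lay 2037 kb from Bcl11a and 176.8 kb from Fancl. It ranked 82.7 and 81.9 in WT and 77.2 and 76.6 in KO. The libraries of the genotypes did not overlap at either region, and the directions were opposite.

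Kit encodes the receptor for stem cell factor, which early erythroid progenitors need, and it had members on both sides. Between Pdgfra and Kit there were 4, at 114.5 to 197.5 kb from Kit. Their median ranks were 31.5 (WT 1), 45.7 (WT 2), 56.2 (KO 1) and 42.9 (KO 2), and the genotypes overlapped. On the Kdr side a single member, chr5:75761625-75762658, lay 105.4 kb from Kit and ranked 61.3, 63.5, 63.6 and 58.6 in the same order. Ly86 and Rreb1 flanked 3 members. The highest, chr13:37619828-37620745, lay 158.2 kb from Rreb1, a zinc finger transcription factor gene, and ranked 55.7 and 58.0 in WT and 54.0 and 56.8 in KO.

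Among the stem and progenitor regulators, gaps with members were flanked by Bcl6, Btg1, Cebpb, Dusp6, Irs2, Jun, Klf4, Mef2c, Mycn, Runx1, Sox4, Spry2, Tcf4 and Zfp36l2. The only member of the Tcf4 gap, chr18:68692076-68692301, lay 651.3 kb from Tcf4 and nearer to Mc2r, at 262.8 kb. It was 226 bp wide and is among the narrow regions described below. Mef2c, a MADS-box transcription factor gene, had 2 high-ranked members. The first, chr13:83344327-83345597, lay 159.2 kb away and ranked 82.2, 78.3, 79.5 and 77.9. The second, chr13:83382506-83383336, lay 121.2 kb away and ranked 84.0 and 77.8 in WT and 76.9 and 73.8 in KO. Both Mef2c regions were in the upper part of every list.

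Jun, encoding an AP-1 subunit, had 4 members in its gap. The highest was at chr4:95160936-95161891, 109.1 kb away and inside the non-coding gene Junos, with ranks of 72.9 and 76.2 in WT and 78.7 and 72.5 in KO. Mycn, a relative of Myc, had 4 as well, the highest at chr12:12488064-12488849, 107.3 kb away, with ranks of 71.8, 81.0, 68.4 and 74.2. The genotypes overlapped at these 2 regions.

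The fullest gap was that between Map3k1, a MAP kinase kinase kinase gene, and Ankrd55 on chromosome 13, with 16 members in 470 kb, 59.2 per available Mb. Of these, 15 formed a single group over 171 kb, at chr13:111928705-112101344. Ranks in this gap spread widely, with lowest list percentiles from 1.02 to 67.8. The gap had median ranks of 34.2 and 31.7 in WT, and of 34.0 and 24.3 in KO. Both KO libraries ranked above both WT libraries at 3 of the 16 regions and below them at 5, orders that 19.2 percent and 20.5 percent of all shared regions had. Desert regions of any library numbered 26 in this gap, so 16 of 26 were found in all 4.

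The gap between Tbc1d1, which encodes a Rab GTPase-activating protein, and Klf3 on chromosome 5 was as dense, with 15 members in 451 kb (59.8 per Mb). KLF3 is a Krüppel-like repressor whose gene is known as a target of KLF1 in red cell precursors. Here 13 members formed a group over 135 kb at chr5:64566760-64702314. The highest, chr5:64567662-64568528, ranked 71.6 and 67.9 in WT and 64.6 and 70.2 in KO. Median ranks over the 15 were 31.3, 35.8, 39.7 and 31.6, and the genotypes overlapped. The gap held 28 desert regions of any library.

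Runx1 encodes a transcription factor that the first blood stem cells require. Its gap towards Setd4 on chromosome 16 spanned 757 kb and held 14 members, including 2 groups of 5, at 235.8 to 628.3 kb from Runx1. The highest-ranked, chr16:93196652-93198276, lay 371.4 kb away and was 1625 bp wide. It ranked 81.8 and 67.9 in WT and 60.4 and 75.1 in KO. Median ranks in the gap were 37.4, 33.5, 37.3 and 38.4, a narrow range. At no region did both KO libraries rank above both WT libraries, and at 3 of 14 they ranked below, close to the 20.5 percent of all shared regions.

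Myc, a growth regulator that falls as red cells mature, was followed by 13 members in the 1786 kb up to Gsdmc on chromosome 15. Of these, 10 formed a group over 130.5 kb at chr15:62098742-62230202, and 10 of the 13 had their summit inside a non-coding gene. The highest, chr15:62158218-62159440 within the non-coding gene Pvt1, lay 168.7 kb from Myc and ranked 69.7 and 69.8 in WT and 63.7 and 64.7 in KO. The nearest, chr15:62098742-62099927, lay 108.8 kb away and ranked 60.6 and 61.9 in WT and 68.9 and 75.5 in KO. The genotypes did not overlap at either, and the order was reversed. Over the gap, both KO libraries were above both WT libraries at 6 of 13 regions and below at 5, again beside 19.2 percent and 20.5 percent of all shared regions. The last member lay 1662 kb from Myc, close to the far side of the gap.

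**Figure D2:**
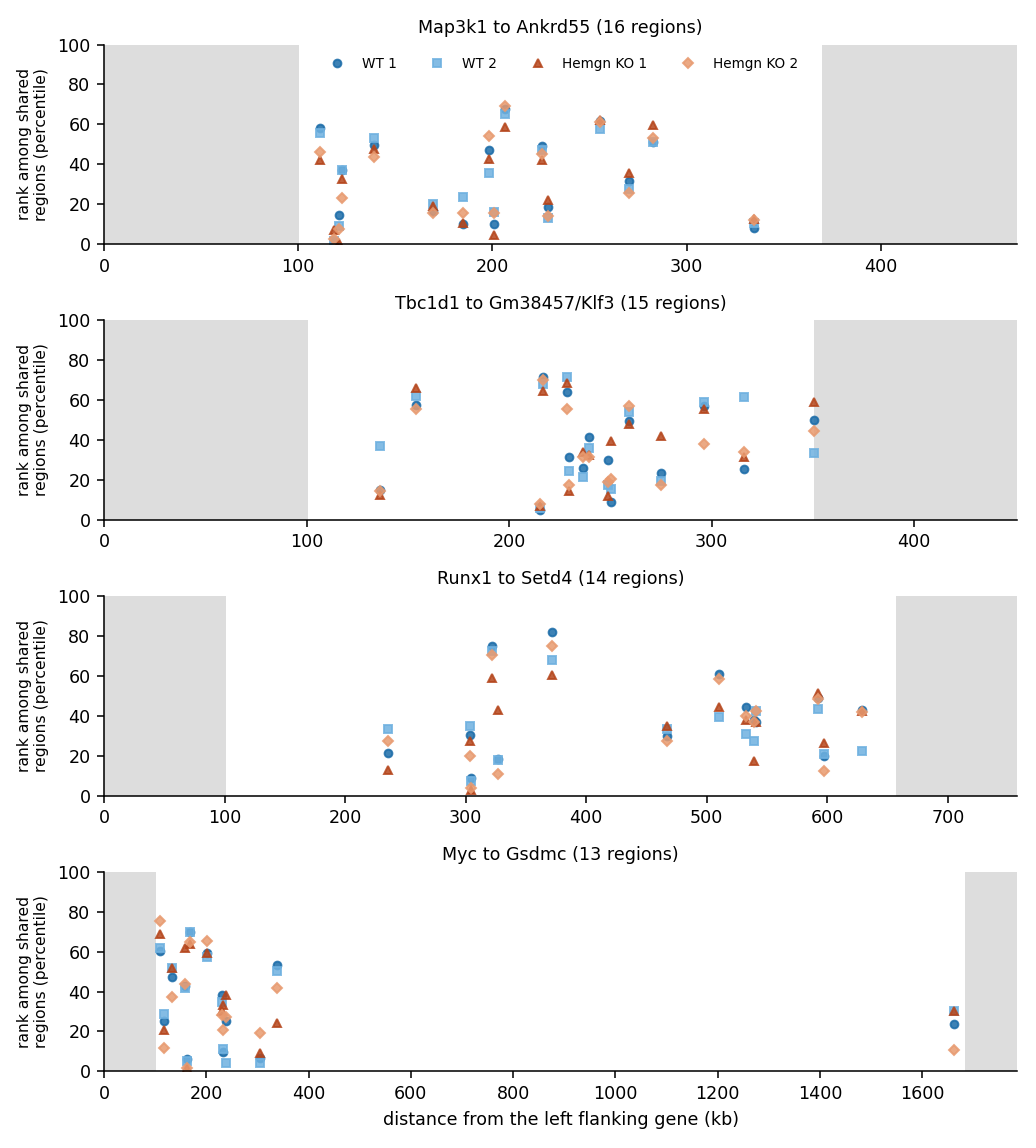
Rank of each member among shared regions (vertical axis, percentile of fold within the library) against its distance in kb from the left flanking gene, in the 4 fullest gaps; each member has 1 point per library, and grey marks the 100 kb next to a gene that the rule leaves out. In the Myc gap 12 of 13 members lie at its Myc end. In the Map3k1, Klf3 and Runx1 gaps, members span 223.6, 214.3 and 392.5 kb of the 270.2, 250.9 and 557.4 kb available.

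Further full gaps are given by their counts. Enc1, encoding a kelch-family actin-binding protein, and Arhgef28 flanked 9 members. Pik3r1, encoding the regulatory subunit of PI3-kinase, had 7 on its Slc30a5 side, within 63.3 kb. Their ranks ran from 1.2, 1.0, 2.5 and 2.1 at chr13:101547776-101548116 to 74.2, 77.0, 78.2 and 75.4 at chr13:101572954-101573830. Strong and weak regions thus lay side by side in that stretch in all 4 libraries. Cited2, encoding a CBP/p300-binding coactivator needed for fetal liver blood formation, had 7 on its Nmbr side, of which 6 formed a group over 37.8 kb. Zfp36l2, encoding an mRNA-binding protein of early erythroid progenitors, had 6 on its Haao side. Those 6 were weak in every library, with median ranks of 11.8 and 19.1 in WT and 21.1 and 25.7 in KO.

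Cdkn2b, an inhibitor of cyclin-dependent kinases, and Dmrta1 flanked 6. The gaps with 5 were those of Ccnd2 (cyclin D2) and Parp11, Tmtc1 and Ipo8, Opa1 and Hes1, Rasgef1b and Vamp9, Gadd45g and Diras2, Tusc1 and Caap1, and Gm36448 and Dad1. The last holds the T cell receptor alpha locus, whose segments are not counted as protein-coding genes in the table. The best-ranked region near Ccnd2, chr6:127329962-127331020, lay 178.3 kb from the gene and ranked 83.9 and 87.1 in WT and 88.0 and 78.9 in KO. Opa1 and Hes1, the latter a Notch target gene, flanked 5 well-ranked regions, with medians of 52.1 and 62.8 in WT and 65.6 and 67.9 in KO. Taken region by region the order was the opposite, with a median KO-minus-WT difference of −5.45.

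Over the whole genome 271 members (55.6%) had another within 50 kb of their summit and fell into 87 groups, while 216 stood alone. There were 53 groups of 2, 12 of 3 and 22 of 4 or more, and the last held 129 regions. The median distance to the next member on the chromosome was 201 kb, and 91 of 467 such distances were at most 10 kb. Members in groups of 4 or more had a median lowest percentile of 43.0 and a median width of 842 bp, against 37.7 and 782 bp for those alone. Chromosome 13, with the Map3k1, Enc1 and Pik3r1 groups, had 62 members, and those in gaps between genes numbered 1.79 per available Mb. Chromosome X had 15, 0.270 per Mb, and the other chromosomes lay between.

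Desert regions had median ranks beside those of other regions away from gene boundaries. A region's rank here is the percentile of its fold within a library among the 27465 shared regions, so each library ranks the same set. The 487 had median ranks of 36.5 and 34.7 (WT) and of 37.7 and 40.4 (KO). Near-gene intergenic regions had 37.5, 38.4, 35.9 and 38.1, and regions inside genes had 35.5, 35.4, 33.8 and 34.8. Regions at gene boundaries, at 72.7 to 74.1, were higher in every library. The difference between desert and near-gene medians was −1.08 and −3.73 in WT and 1.76 and 2.28 in KO, a mean of −0.194 over 4 libraries (exact two-sided sign-flip test, p = 1, smallest possible p 0.125). Ranked by −log10 q in place of fold, the mean difference was −4.42 (exact sign-flip p = 0.125).

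**Figure D3:**
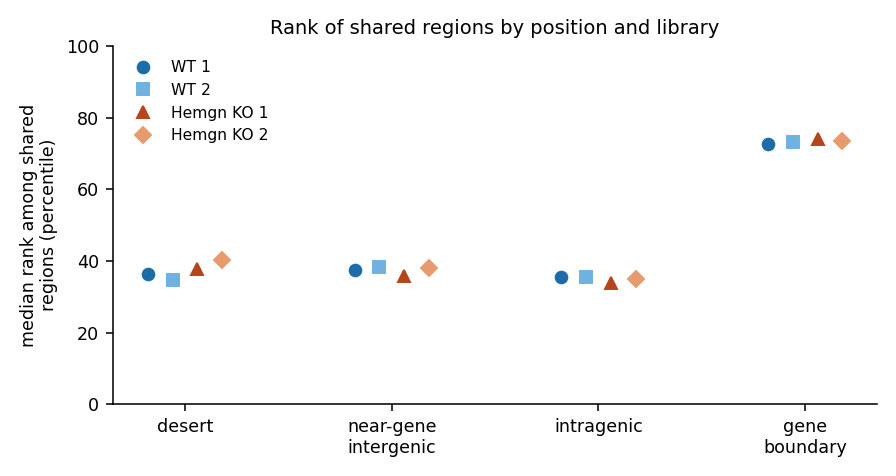
Median rank among shared regions (percentile of fold within each library, vertical axis from 0 to 100) by position class, with 1 point per library. Desert medians of 34.7 to 40.4 sit beside the near-gene and intragenic ones and below the gene boundary medians of 72.7 to 74.1.

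In absolute terms of their own lists, members were above the middle in the longer lists and near the middle in the shorter. The median list percentile was 62.2 or 46.0 in WT, and 50.8 or 60.9 in KO. Members in the top 10% of a list numbered 26 and 12 in WT and 10 and 20 in KO, and those in the lowest 25% numbered 23 and 85 in WT and 77 and 31 in KO. The lowest of a region's 4 list percentiles had a median of 39.5, with quartiles of 23.9 and 60.5, against 42.1 for near-gene regions. It was above 50 for 176 members (36.1%, against 39.7% of near-gene regions) and above 90 for 8 (1.64% against 2.31%). At the distance threshold, the members just inside were chr5:64701427-64702314 at 100.3 kb from the Klf3 side, with a lowest percentile of 44.9, and those near Mreg (32.1) and Med13l (29.0). Just outside it were regions at 99.97 kb from Mki67 (26.8), 99.9 kb from Btg1 (33.5) and 99.83 kb from Adgrl2 (20.1).

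The highest-ranked members were narrow. The top region, chr18:68692076-68692301, was 226 bp wide and lay 262.8 kb from Mc2r and 651.3 kb from Tcf4. Its fold was 44.5 and 42.3 in WT and 39.4 and 42.4 in KO, and its lowest list percentile was 99.99. Next came chr6:3201059-3201567, before the first gene of its chromosome, with folds of 40.5, 35.4, 33.2 and 35.1. These 2 were among the 10 highest folds of every list. The third, chr3:5860369-5860821, 282.1 kb from Pex2, had folds of 29.9, 29.8, 28.1 and 29.4. Its −log10 q was the highest of the entire list in each library, 8338 in WT replicate 1, 4093 in WT replicate 2, 4586 in KO replicate 1 and 5249 in KO replicate 2. The fourth, chr3:62159062-62159446, lay between Rap2b and Arhgef26.

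These 4 regions were 226 to 509 bp wide, against a median of 811 bp for all members (quartiles 625 and 1061 bp), and 7 of the top 10 were narrower than that median. Below them, higher-ranked regions were wider. The median width was 649.5 bp for lowest percentiles of up to 25 (128 regions), 798 bp up to 50 (183 regions), 1000 bp up to 75 (139 regions) and 877 bp above (37 regions). Narrow towers of reads and regions at the start of a mouse chromosome are known, as background, to arise at satellite or other repeats collapsed in the assembly. No list of such places was used here, and their part in these ranks was not tested. The regions at the start of chromosome 9, a group of 5 at chr9:3000009-3024520, ranked in the middle of the lists, with lowest percentiles of 27.7 to 60.4.

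**Figure D4:**
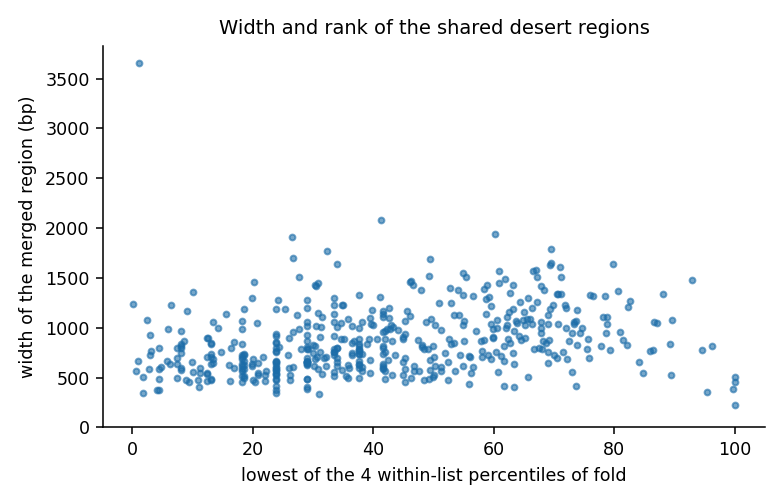
Width of each merged region in bp (vertical axis) against the lowest of its 4 within-list percentiles of fold (horizontal axis), 1 point per member (n = 487). Width rises from a median of 649.5 bp to 1000 bp up to the 75th percentile, and the points nearest 100 are narrow.

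Other members of the top 20 included chr1:7397028-7398510 between Pcmtd1 and Sntg1 (lowest percentile 92.8) and chr2:84051815-84052344 between Zswim2 and Calcrl (89.4). Zmiz1, encoding a transcriptional coactivator, had a region at chr14:24778923-24779703, 678.6 kb away, with ranks of 79.99, 83.04, 85.32 and 81.72. The second-farthest member from any gene was also in the top 20, chr2:98666243-98667319 at 1035 kb from Lrrc4c. It ranked 81.7, 91.4, 92.6 and 90.1, while its neighbour at chr2:98662250-98662817 ranked 5.7, 1.1, 0.4 and 3.8. For the higher-ranked of this pair, −log10 q ran from 714.0 to 1096.8 across libraries, at folds of 15.1 to 17.4. The region between Pcmtd1 and Sntg1 had lower values, 306.7 to 819.3, at folds of 16.4 to 18.2. Whether the pair near Lrrc4c lies in a repeat collapsed in the assembly was not tested.

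Between genotypes, the desert median rank was 35.6 ± 1.26 (SD, n = 2) in WT and 39.0 ± 1.91 (SD, n = 2) in KO. Both KO libraries were above both WT libraries. The difference was 3.43 (exact two-sided permutation test, p = 0.333, the smallest possible). The median of each region's own difference was smaller, 0.384, with quartiles of −5.92 and 6.96, and the KO mean was higher in 250 of 487 regions. With the upper 50% of each list by fold alone, 176 regions were left and the difference was −2.83 (exact permutation p = 0.667). In bulk tissue, fewer cells with an open region and less opening per cell cannot be told apart, and list length also differed between libraries.

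Region by region, both KO libraries ranked above both WT libraries at 116 of 487 desert regions (23.8%), where 19.2 percent of all shared regions did. Both WT libraries ranked above both KO libraries at 103 (21.1%), where 20.5 percent of all shared regions did. The share with WT above is near its background, and the share with KO above is somewhat over it. That excess depended on the settings. At over 50 kb from a gene the shares were 20.1% with KO above and 21.0% with WT above, and in the upper 50% of each list they were 14.2% and 25%, against 19.3% and 19.99% of the shared regions of those lists. For near-gene intergenic regions the shares were 16.0% and 24.0%, for regions inside genes 16.7% and 22.6%, and at gene boundaries 22.8% and 16.8%. No test per region was run, and neighbouring members share their surroundings. The Spearman correlation of ranks over the 487 regions within WT was 0.867, that within KO was 0.817, and it was 0.863 between WT replicate 1 and KO replicate 2, which have the longest lists. Across the other pairs it was 0.743 to 0.816, and these are descriptions over regions that share their libraries.

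**Figure D5:**
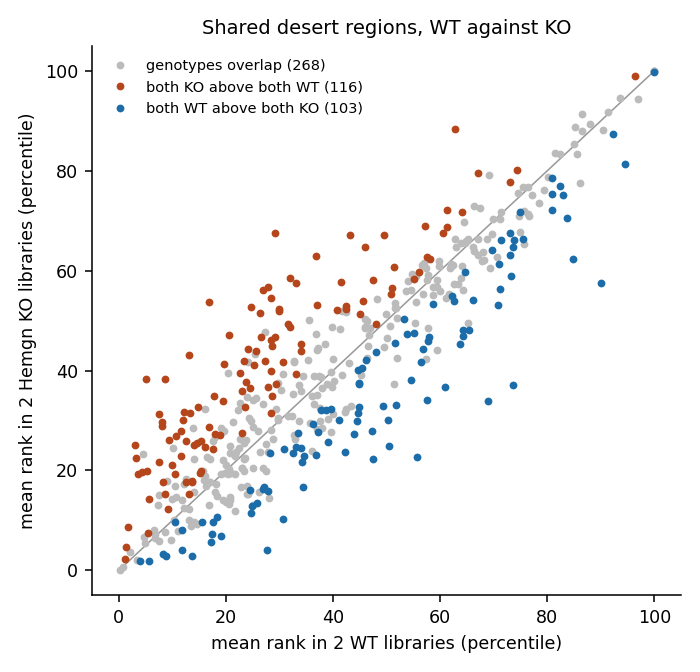
Mean rank among shared regions in the 2 KO libraries (vertical axis, percentile) against that in the 2 WT libraries (horizontal axis), 1 point per desert region (n = 487), with the line of equality. Coloured points are regions where the genotypes do not overlap, 116 with KO above and 103 with WT above, and they lie on both sides of the line.

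The members with the largest excess in KO included chr12:23009536-23010705, between Gm38538 and Gm40862, at ranks of 28.2 and 30.0 in WT and 61.7 and 73.4 in KO. Next to Ccser2, chr14:36618128-36619310 ranked 19.2 and 14.3 in WT and 54.1 and 53.3 in KO. A region between Magi3 and Lrig2, chr3:104327148-104327984, had WT ranks of 5.6 and 4.4 and KO ranks of 38.1 and 38.5. Its WT peaks were weak, with folds of 3.6 and 3.3, −log10 q of 5.9 and 2.4, and list percentiles of 26.2 and 8.2. At these 3 regions the gap between the genotypes was wider than the spread within either. Choosing the largest differences among regions without overlap favours such a gap, so it is no support for a difference. Further ones lay 258.7 kb from Marcks (19.2 and 7.1 against 43.6 and 42.9) and 281 kb from Diras2 (6.8 and 10.5 against 27.9 and 48.5).

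Among those with the largest excess in WT, chr14:46539634-46540664 lay 149.2 kb from Bmp4, encoding a growth factor of the TGF-beta family. It ranked 68.6 and 78.5 in WT and 28.8 and 45.5 in KO. A region between Dhrs2 and Dhrs4, chr14:55343720-55344918, ranked 57.9 and 53.5 in WT and 16.3 and 29.2 in KO. Within the T cell receptor alpha locus, chr14:53072568-53073350 ranked 84.1 and 96.1 in WT and 64.8 and 50.4 in KO. Between Cntn3 and Chl1, the WT ranks were 82.6 and 55.2 against KO ranks of 12.6 and 55.1, so that 1 library of each genotype was almost level. The fifth lay 141.7 kb from Marcks, in the same gap as a region with the opposite order, and ranked 55.1 and 45.7 in WT and 20.2 and 29.6 in KO. The 3 regions on chromosome 14 lie within a single stretch, from 40 to 60 Mb, that holds 9 members, of which 3 had KO above and 4 had WT above. Over all shared regions the shares were 19.2 percent and 20.5 percent. The counts of this stretch are few and were not tested.

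In some gaps many members had the same order of genotypes. All 4 regions between Veph1 and Shox2, a homeobox gene, ranked higher in both WT libraries, with a median KO-minus-WT difference of −11.2. Their ranks were 79.1 and 67.2 against 62.0 and 64.5 at chr3:66485945-66487281, 83.2 and 78.6 against 68.5 and 75.7 at chr3:66494207-66495090, 77.7 and 64.6 against 48.5 and 64.1 at chr3:66519702-66520607, and 33.4 and 34.9 against 21.8 and 21.5 at chr3:66652017-66653103. The genotypes did not overlap at any of the 4, but at the third of them WT replicate 2 and KO replicate 2 were almost level.

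Next to Ccser2, 3 of 4 members ranked higher in both KO libraries, with a median difference of 23.4. Between Cd24a, encoding a surface glycoprotein of immature blood cells, and Qrsl1, 3 of 4 did so as well and the fourth ranked higher in both WT libraries, with a median of 10.3. Cdkn2b and Dmrta1 flanked 3 of 6 with KO above and none with WT above. At Hes1, 3 of 5 had WT above and none KO above. On chromosome 12, 11 of 26 members had KO above and 4 had WT above, and on chromosome 16 the counts were 1 and 8 of 30. Of those 11, 3 were all the members between Gm38538 and Gm40862, with a median difference of 28.9. Another 2 were among the 3 members between LOC108167368 and Asap2. The shares over all shared regions were 19.2 percent and 20.5 percent, and the WT counts of both chromosomes lie near theirs. These gaps and chromosomes were singled out after their values were seen, and their direction was not tested.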

How the data were processed

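Peak lists of open chromatin were deposited for 4 libraries, 1 list per library and none pooled, in the MACS2 narrowPeak layout. The submitters' processing notes name MACS2 2.2.7.1, Picard 2.21.4, SAMtools 1.9 and Bowtie2 2.3.5, with no settings, and for the build: not given in the sources used here. Fold enrichment, as deposited, is a ratio of signal to background that the authors computed at a peak's summit, and the deposited score, −log10 p and −log10 q are the authors' values for each peak. These values were used only to rank peaks within a list. Ranks follow list length and depth, and the read depth is not given.

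The members and the gene lists were chosen with earlier results of these data known. In all, 195 peaks on other sequences were left out. Genes were 21521 protein-coding genes of the RefSeq table for GRCm38.p6 on chromosomes 1 to 19 and X. As a check of the build, 24.3% of 21045 protein-coding promoter windows held a shared summit, against 0.551%, 0.684% and 0.784% after shifts of 5, 20 and 50 kb. A gap ran between neighbouring protein-coding genes, its available length left out 100 kb at each gene, and members within 50 kb of each other formed a group. Members named in the text are the 20 with the highest lowest percentile, groups of 4 or more, the 10 fullest gaps, the 5 farthest from a gene, up to 25 beside erythroid or progenitor genes, the 5 largest genotype differences in each direction and 3 on each side of the distance threshold. Others were named after their values were seen. Some members that this rule names are not reported here. Library medians were compared by exact permutation tests over libraries. The planned count of motifs at summits was not run here, as it needs a genome sequence. Python 3.11.15, pandas 2.3.3, numpy 2.4.6, scipy 1.17.1 and matplotlib 3.10.9 were used, and the ranking and non-overlap counts were tested on simulated data.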

Additional observations from a re-analysis of the deposited data

Results flagged for a closer look

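The desert median rank minus the near-gene intergenic median rank had a different sign in the genotypes. It was −1.08 and −3.73 percentile points in WT replicates 1 and 2, and 1.76 and 2.28 in KO replicates 1 and 2. The genotype difference of this quantity was 4.42 points (exact two-sided permutation test, p = 0.333, the smallest possible with 2 against 2 libraries).

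The width covered by peaks showed the same split, with the difference between genotypes not tested. Desert medians minus near-gene medians were −2 and −5 bp in WT and 11 and 57 bp in KO. The medians themselves were 665 and 556 bp in WT and 595 and 713 bp in KO for desert regions, against 667, 561, 584 and 656 bp for near-gene regions. The KO replicate 2 value stood apart from the other 3, and the difference over the 4 libraries was 15.25 bp (exact sign-flip test, p = 0.5). What list length and depth contributed to either split was not tested.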

How the results depend on the processing

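The number of shared desert regions, 487, was 1159 at over 50 kb from a gene, 151 at over 200 kb, 176 in the upper 50% of each list by fold and 25 with genes of every biotype. In the first 3 of these settings, in that order, regions with KO above WT numbered 233, 38 and 25 (20.1%, 25.2% and 14.2%). Regions with WT above KO numbered 243, 34 and 44 (21.0%, 22.5% and 25%). Over all shared regions, KO was above at 19.2%, 19.2% and 19.3%, and WT was above at 20.5%, 20.5% and 19.99%. The mean desert minus near-gene rank turned positive in these settings, at 1.25, 1.96 and 2.04. The genotype difference in desert median rank turned to −2.83 in the upper 50% of lists, and the cause was not tested. With lists of equal length, 36.6% (by fold) and 39.8% (by q) of desert regions were in all libraries.

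Leaving out each library in turn, the share of desert regions in all those left was 37.6% to 39.2%. Without WT replicates 1 and 2 and KO replicates 1 and 2, in that order, members numbered 495, 591, 558 and 505. Of these, KO above numbered 178, 213, 211 and 193, and WT above 165, 179, 190 and 205. Fewer libraries are needed for either order here, and its share over all shared regions is not given for these settings. The genotype difference in the desert share of lists ran from −0.175 to 0.331 points, and was negative without WT replicate 2 (−0.175) and without KO replicate 2 (−0.140). Counting genes within 5 kb beyond the flank gave 44 erythroid members. Counting the nearest gene only gave 23 erythroid, 26 progenitor, 1 hepatocyte, 1 endothelial, 16 developmental factor and 10 neural members. With the replicate number as a block, the rank difference was 3.43 (exact sign-flip p = 0.5, the smallest possible) and the desert share difference 0.0779 (p = 1), and the numbers share only a label. Apart from these and the omission of libraries, 34 comparisons with an alternative kept the direction, moved by less than the spread, or stayed within 1.5 times as a count. The smallest possible p was 0.333 (exact permutation test) or 0.125 (exact sign-flip test), so no tested result could change its side of the threshold. Size was not judged for tested results. The genotype difference in desert rank thus counts as kept at 0.384, the median of each region's own difference, against 3.43. Peak lists give no depth, so none of these values has a counting error.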
